A study of Mirounga angustirostris with 8 samples.

Results

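Adult female northern elephant seals (NES, Mirounga angustirostris) fast and stay ashore during the annual molt, and biopsies of their longissimus dorsi, a back muscle, were taken early and late in that period. The early-molt group (pre-molt in the study) holds the libraries of seals 5572, 5842, 6762 and C497, sampled within 5 days of arrival. The late-molt group (post-molt) holds seals 4448, 5572, 9678 and X410, and in the study the second biopsy of resampled seals followed the first by a mean of 34 days. The labels name no experimental treatment, seal 5572 is in both groups, and each library is 1 whole-muscle biopsy in which all cell types of the tissue are mixed. The genes described here are the translation initiation and elongation factors, chosen by gene symbol (EIF1 to EIF6 and EEF1 to EEF2, without the kinases, methyltransferases and EIF4E-binding proteins that act on them) and by at least 80 reads summed over the 8 libraries. Of 24349 entries in the count table, 51 matched by symbol and 50 were kept. EIF4E1B was left out with no read, and all 50 kept genes passed the filter on low counts and were tested among 14314 genes. The question that the comparison answers is how transcripts of the translation machinery differed between muscle at the start and at the end of a long fast with little activity.

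Protein synthesis starts when eIF2, carrying GTP and the initiator methionyl tRNA, joins the small ribosomal subunit together with eIF1, eIF1A, eIF3 and eIF5. The eIF4 factors recognise the cap of the mRNA, unwind its leader and recruit this complex, and eIF5B joins the large subunit at the start codon. In elongation, eEF1A brings each aminoacyl tRNA to the ribosome, the eEF1B subunits recharge eEF1A with GTP, and eEF2 moves the ribosome along the mRNA. Many elongation factor and some initiation factor mRNAs carry a 5' terminal oligopyrimidine (TOP) tract, which places their translation, with that of the ribosomal protein mRNAs, under control of the kinase mTOR. Muscle is a large store of body protein, and it uses EEF1A2 as its main adult form of eEF1A.

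The libraries held 37905311 to 56150332 counted reads in early molt and 30774895 to 61229829 in late molt, and values are given as CPM, the reads of a gene per fixed total of reads in its library, scaled with TMM factors that correct for composition. Values by library are listed in the order of seals 5572, 5842, 6762 and C497 for early molt and 4448, 5572, 9678 and X410 for late molt. A fold change is the log2 of late over early molt, ± its standard error (SE). An adjusted p, unless another tool is named, comes from edgeR's quasi-likelihood test with Benjamini-Hochberg adjustment over all 14314 genes and a threshold of 0.05. CPM are not divided by transcript length, so a level is compared between groups and not between genes. Defining genes of skeletal muscle were abundant, with ACTA1 (skeletal actin) and CKM (muscle creatine kinase) at 35011 CPM and 21812 CPM or more in every library. Their log2 fold changes were -0.93 ± 0.25, without overlap, and -0.64 ± 0.25, with overlap (adjusted p = 0.123 and 0.321). Of the 7 muscle fiber genes tested, 6 had negative values, and MB, the myoglobin gene, was at 0.67 ± 0.23 (adjusted p = 0.248). SLC4A1, an anion exchanger of red cells, had no read and LEP, an adipocyte hormone, had reads in 1 library. Other markers of fat and red cells did have reads. The adipocyte markers FABP4 and LPL were at 21.2 to 107 CPM and 379 to 811 CPM, and the erythroid marker ALAS2 at 0 to 1.39 CPM. Early-molt library 5842 had the highest fibroblast marker level (mean log2 CPM 6.38, against 4.61 to 5.31 in the other early-molt and 3.57 to 4.80 in the late-molt libraries). TTN, a giant muscle transcript, ranged from 1152 to 28797 CPM, was at 1152 to 4193 CPM in early 5572 and late 4448, 5572 and X410, and did not separate the groups.

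Transcripts of the translation factors were, in the median, lower in late-molt muscle. The median log2 fold change of the 50 genes was -0.26, beside -0.04 over all genes tested, and 36 of 50 (72%) had a negative value, beside 53.6% of all genes. Reads of the 50 genes made up 2.32 to 2.62% of all counts in the early-molt and 1.95 to 2.26% in the late-molt libraries, with no overlap. Most of this share was eEF1 and EEF2, at means of 0.954% and 0.788% in early and 0.604% and 0.723% in late molt. The mean shares of eIF3 and eIF2B were also lower in late molt. Those of eIF2, eIF4, EIF2A with EIF2D, eIF5A with EIF6, and the group of eIF1, eIF1A, eIF5 and eIF5B were higher. For eIF2 the means, 0.0298% and 0.0300%, differed by less than the SD of either group (0.0033% and 0.0029%). Shares of counts are not scaled with TMM factors. With that scaling, the log2 fold changes of EIF2A (-0.01), EIF2D (-0.15) and EIF6 (-0.34) and the eIF4 median (-0.11) were negative. The lower values lay mainly in eEF1 and eIF3, and the higher ones in the eIF4 and eIF1 families. In whole muscle, fewer cells of a type and less RNA per cell cannot be told apart.

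None of the 50 genes passed the edgeR threshold in either direction, where 0.133% of all genes were called lower and 0.217% higher. The smallest adjusted p was 0.0540, for EIF3K. At an unadjusted p under 0.05, 14 of the 50 (28%) had lower and 3 (6%) higher late-molt values, beside 6.22% and 5.2% of all genes. In 15 genes (30%) every late-molt library was below every early-molt library and in 1 gene every late-molt library was above, beside 5.11% and 4.04% of all genes. DESeq2, the tool the study used, called 10 of 49 genes lower and 0 higher, against 3.16% and 3.35% of the 9992 genes to which it gave an adjusted p, and it had 14 lower and 4 higher at an unadjusted p under 0.05. The 10 genes were EEF1A2, EEF1B2, EEF1D, EEF1G, EIF3E, EIF3F, EIF3H, EIF3K, EIF3L and EIF4H. These calls rest on the adjusted p alone. The study's gene lists also required a log2 fold change of 1 in either direction, which EIF3K alone of the 10 reached (-1.13 in DESeq2). Without early 5842 and late 9678, the libraries with the lowest uniquely mapped share in the study's mapping summary, 9 genes were lower at an unadjusted p under 0.05 and the median was -0.12. The share of all genes lower in that fit is not given, so this count is not set against a general shift.

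**Figure D1:**
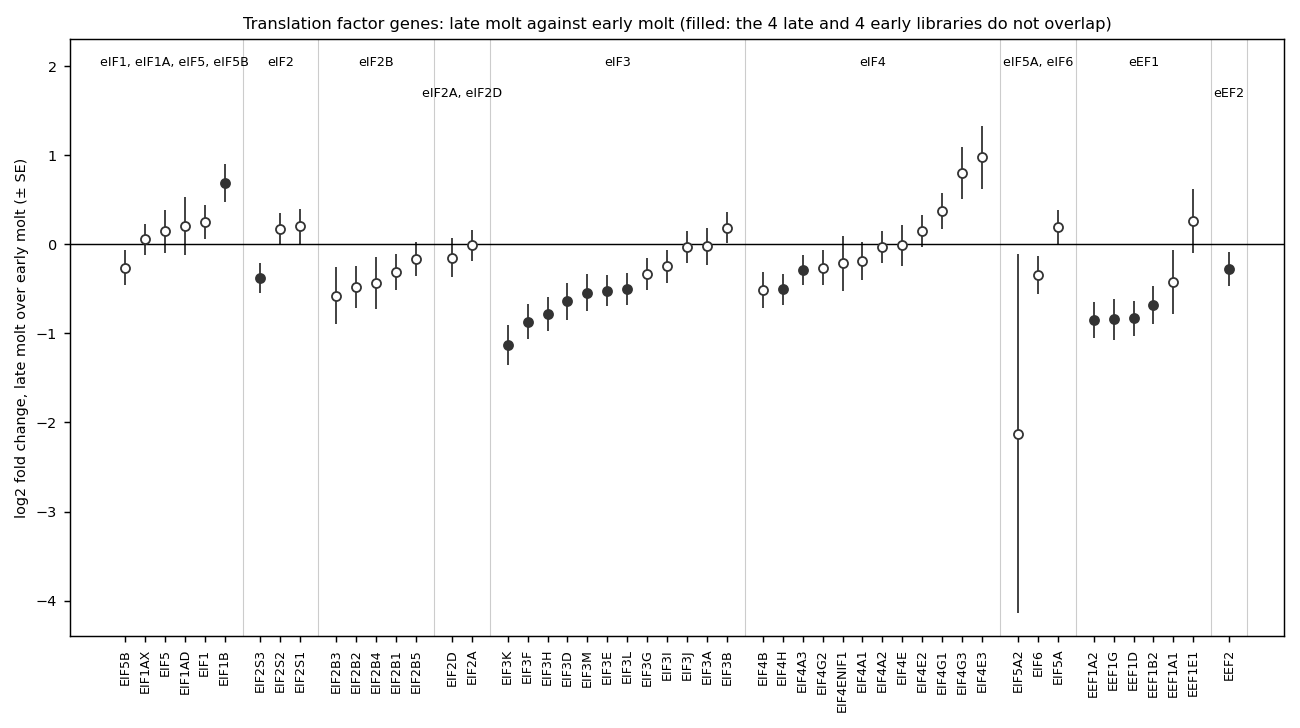
Log2 fold change, late over early molt, with SE (bars) for each of the 50 translation factor genes, grouped by complex along the horizontal axis. Filled points are the 16 genes whose 4 late-molt and 4 early-molt libraries do not overlap, 15 of them below 0. EIF5A2, with the widest bar, had reads in 5 of the 8 libraries.

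The elongation factor genes of eEF1 had a median log2 fold change of -0.76 over 6 genes, and 4 of them were lower at an unadjusted p under 0.05 without overlap between the groups. The 4 were 66.7% of the eEF1 genes, beside 6.22% of all genes lower at that p. Together, eEF1 reads made up 0.836 to 1.03% of counts in early and 0.585 to 0.634% in late molt. EEF1A2, the muscle form of the GTPase that carries aminoacyl tRNA, was at 8697, 8219.5, 6412 and 5649.7 CPM in the early-molt and 4069, 3923, 4177 and 3869 CPM in the late-molt libraries. Its late-molt values lay within a narrow band below the lowest early-molt value. The difference, from 7245 ± 1449 CPM (mean ± SD, n = 4) to 4009 ± 140.1 CPM, was a log2 fold change of -0.85 ± 0.20 (adjusted p = 0.0830). In DESeq2 the adjusted p of EEF1A2 was 0.000272, and over 18 other settings, DESeq2 included, it was 0.000272 to 0.416. Within seal 5572 alone, EEF1A2 had a difference, late minus early, of -1.15 on the log2 scale, in a pair of libraries with no replicate.

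The nucleotide exchange subunits of eEF1B, which return eEF1A to its GTP form, were lower alongside it. EEF1D, one of the catalytic subunits, was at 593, 587, 531 and 397 CPM in the early-molt and 281, 311, 269 and 325 CPM in the late-molt libraries (log2 fold change -0.83 ± 0.19, adjusted p = 0.0800). EEF1G, the structural gamma subunit, was at 1954, 2434, 1559 and 1297 CPM in the early-molt and 854, 1045, 1017 and 1121 CPM in the late-molt libraries (log2 fold change -0.84 ± 0.23, adjusted p = 0.125). EEF1B2, the other catalytic subunit, was at 382, 573, 376 and 343 CPM in the early-molt and 221, 277, 258 and 287 CPM in the late-molt libraries (log2 fold change -0.68 ± 0.21, adjusted p = 0.185). For all 3 subunits, each of the 4 late-molt values was below the lowest early-molt value, and early 5842 had the highest value of EEF1G and EEF1B2. Over the other settings the adjusted p was 0.000289 to 0.355 for EEF1D, 0.00590 to 0.435 for EEF1G and 0.0282 to 0.542 for EEF1B2, with the lowest value of each in DESeq2.

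The remaining eEF1 genes did not share this pattern of separation. EEF1A1, the widely expressed form of eEF1A, was at 120.2, 338, 105 and 183 CPM in the early-molt and 128, 193, 82.5 and 154 CPM in the late-molt libraries. The groups overlapped, with the highest value again in early 5842 (log2 fold change -0.42 ± 0.36, adjusted p = 0.758). Without that library the fold change was 0.05. EEF1A1 has many near-identical processed copies in mammalian genomes and reads aligned to several places were not counted, so its counts are uncertain. EEF1E1, a component of the multisynthetase complex named for its likeness to eEF1, was at 8.92, 4.55, 8.64 and 15.4 CPM in the early-molt and 11.2, 8.64, 14.3 and 10.8 CPM in the late-molt libraries, and the groups overlapped (log2 fold change 0.26 ± 0.36, adjusted p = 0.875). The log2 ratio of EEF1A2 to EEF1A1 counts was 6.18, 4.60, 5.93 and 4.95 in early and 4.99, 4.35, 5.66 and 4.65 in late molt. It differed by -0.50, within the spread between libraries (two-sided exact permutation p = 0.314, adjusted over 6 ratios 0.557).

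EEF2, the translocase of elongation, was at 9992, 7231, 8573 and 7416 CPM in the early-molt and 7179, 7129, 6469.7 and 6584 CPM in the late-molt libraries. Every late-molt value lay below every early-molt value, but the gap between 7179 and 7231 CPM was small beside the early-molt range (log2 fold change -0.28 ± 0.19, adjusted p = 0.666). With 1 library left out at a time, the fold change of EEF2 was -0.33 to -0.18.

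**Figure D2:**
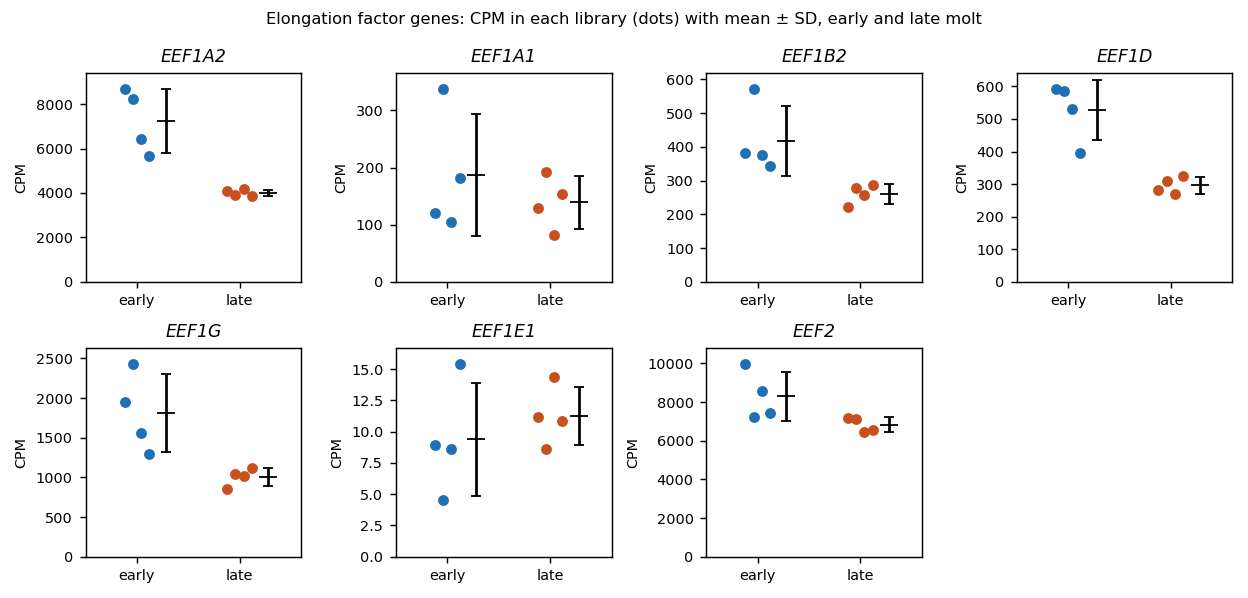
CPM of the 6 eEF1 genes and EEF2 in each library (dots, 4 early-molt in blue and 4 late-molt in orange), with the mean and SD of each group beside them. The late-molt dots of EEF1A2, EEF1B2, EEF1D, EEF1G and EEF2 all lie below the early-molt dots, whereas those of EEF1A1 and EEF1E1 overlap.

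eIF3, the largest initiation factor and the scaffold on which the initiation complex is built, had 12 measured subunit genes with a median log2 fold change of -0.51, and 11 of the 12 values were negative. At an unadjusted p under 0.05, 7 subunits were lower and 0 higher, and these 7 (EIF3D, EIF3E, EIF3F, EIF3H, EIF3K, EIF3L and EIF3M) were also those without overlap between the groups. The 7 were 58.3% of the measured eIF3 genes, beside 6.22% of all genes lower at that p and 5.11% lower without overlap. The gene of the core subunit c is not among the symbols analysed here. Among the 7 measured genes of the octamer core, 6 were lower at an unadjusted p under 0.05 and the median was -0.54. Among the 5 peripheral subunits, which hold the RNA-binding and beta-propeller proteins, this was 1 gene, EIF3D, which has a cap-binding activity of its own, and the median was -0.25. Whether core and periphery differed was not tested.

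The lowest fold change within eIF3 was that of EIF3K, a small subunit of the octamer core, at 463, 643, 380.5 and 387 CPM in the early-molt and 174, 253, 211 and 219 CPM in the late-molt libraries. Late-molt values were between 174 and 253 CPM and none reached the lowest early-molt value. The mean went from 468 ± 122 CPM (mean ± SD, n = 4) to 214 ± 32.5 CPM (log2 fold change -1.13 ± 0.22, adjusted p = 0.0540). It passed the threshold in DESeq2 (adjusted p = 7.65e-05), in limma-voom (0.0281), with no filter on low counts (0.0235) and with a filter of 1 CPM in all libraries (0.0298), and over the 18 alternatives its adjusted p was 7.65e-05 to 0.221. EIF3F, a core subunit with a deubiquitinase-type fold that is known as a target of atrophy signalling in muscle, was at 147, 199.7, 122 and 141 CPM in the early-molt and 79.95, 81.1, 82.0 and 91.4 CPM in the late-molt libraries (log2 fold change -0.87 ± 0.19, adjusted p = 0.0701). Its late-molt values lay close together below the early-molt range, and it also passed in DESeq2, without the filter and with the 1 CPM filter (adjusted p over the alternatives 0.00106 to 0.316). EIF3H, the partner of EIF3F in the core, was at 132, 165, 131 and 129.8 CPM in the early-molt and 70.2, 98.3, 65.5 and 89.5 CPM in the late-molt libraries (log2 fold change -0.78 ± 0.19, adjusted p = 0.0924). Again no late-molt library reached the early-molt range (adjusted p over the other settings 0.00309 to 0.394).

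Of the other subunits without overlap, EIF3D went from 129 ± 34.5 CPM (mean ± SD, n = 4) to 83.2 ± 5.28 CPM and EIF3M from 60.3 ± 15.7 CPM (mean ± SD, n = 4) to 41.4 ± 3.91 CPM. EIF3E went from 132 ± 16.5 CPM (mean ± SD, n = 4) to 92.1 ± 9.20 CPM and EIF3L from 974 ± 108 CPM (mean ± SD, n = 4) to 687 ± 31.4 CPM. Their log2 fold changes were -0.64 ± 0.21, -0.54 ± 0.21, -0.52 ± 0.18 and -0.50 ± 0.18, and their adjusted p in edgeR 0.213, 0.311, 0.230 and 0.258. The values of EIF3A, the scaffold of the octamer (-0.02 ± 0.21), and EIF3J, a loosely bound subunit (-0.03 ± 0.18), were near 0. EIF3G and EIF3I, small peripheral subunits, were at -0.33 ± 0.18 and -0.25 ± 0.19 with overlapping groups. EIF3B, the peripheral scaffold, was the 1 subunit with a positive value, at 484, 402, 396 and 417 CPM in the early-molt and 565, 458, 456 and 457 CPM in the late-molt libraries (log2 fold change 0.19 ± 0.18, adjusted p = 0.793). Its groups overlapped, and late 4448 was the highest library.

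The early-molt library 5842 had the highest value of 10 of the 12 eIF3 genes. It was also the library with the most fibroblast marker RNA, and the 9 fibroblast markers had a median log2 fold change of -1.31, with 9 of 9 negative and a mean log2 CPM of 4.61 to 6.38 in early and 3.57 to 4.80 in late molt. Without this library the median of eIF3 was -0.37 and that of eEF1 -0.56. The other marker lists had medians of -0.89 (6 adipocyte genes, mean log2 CPM 3.02 to 5.61 in early and 2.09 to 4.68 in late molt), -0.23 (7 endothelial genes), 0.04 (6 macrophage genes) and -0.46 (7 muscle fiber genes), and of the erythroid genes ALAS2 alone was tested, at 1.24 with at most 1.39 CPM. The part of cell composition in the lower translation factor values was not tested. With the mean level of TTN and NEB, both giant transcripts, as a covariate, 14 genes were lower at an unadjusted p under 0.05, 13 of them among the 14 without the covariate, and the eIF3 median was -0.46, an alternative chosen after seeing the data. The covariate fit has no share over all genes given, so its count is not set against a general shift.

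**Figure D3:**
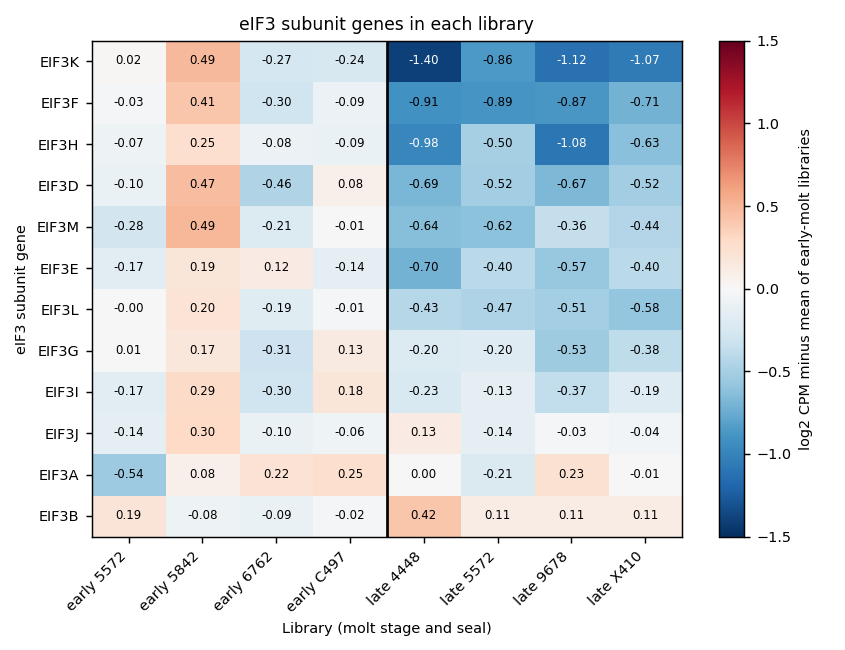
Log2 CPM of the 12 eIF3 subunit genes in each of the 8 libraries, minus the mean of the 4 early-molt libraries. Rows are ordered by fold change, and the 7 upper rows are below 0 in all 4 late-molt libraries, with early 5842 above 0 in each of them.

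The trimer eIF2, which brings the initiator tRNA, showed no common direction. EIF2S3, the gamma subunit that binds GTP and the tRNA, was at 182, 195, 214 and 190.2 CPM in the early-molt and 163, 133, 156 and 148 CPM in the late-molt libraries. Its groups did not overlap (log2 fold change -0.38 ± 0.17, adjusted p = 0.397). EIF2S1, the alpha subunit whose phosphorylation slows initiation, was at 36.0, 25.0, 31.0 and 32.3 CPM in the early-molt and 35.5, 29.8, 36.8 and 40.9 CPM in the late-molt libraries (log2 fold change 0.20 ± 0.19, adjusted p = 0.796). EIF2S2, the beta subunit, was at 83.0, 107, 73.4 and 83.0 CPM in the early-molt and 91.4, 100.4, 91.3 and 108 CPM in the late-molt libraries (log2 fold change 0.18 ± 0.18, adjusted p = 0.814). Both overlapped between the groups, with late-molt means above the early-molt means.

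All 5 genes of eIF2B, the exchange factor that recharges eIF2 and is blocked by phosphorylated EIF2S1, had negative values (median -0.44), none with an unadjusted p under 0.05. EIF2B2 was at 22.1, 22.0, 17.3 and 22.5 CPM in the early-molt and 12.8, 13.8, 20.7 and 13.1 CPM in the late-molt libraries (log2 fold change -0.48 ± 0.24, adjusted p = 0.486). EIF2B3 was at 33.7, 41.1, 42.6 and 40.7 CPM in the early-molt and 26.4, 33.9, 10.1 and 35.6 CPM in the late-molt libraries (log2 fold change -0.58 ± 0.32, adjusted p = 0.557). EIF2B1 was at 28.5, 25.2, 32.1 and 30.9 CPM in the early-molt and 18.7, 24.4, 26.8 and 24.0 CPM in the late-molt libraries (log2 fold change -0.31 ± 0.20, adjusted p = 0.629). Late 9678 had the highest late-molt value of EIF2B2 and EIF2B1 and by far the lowest of EIF2B3, and the groups of all 3 overlapped. Without late 9678 the median of the 5 genes was -0.30. The values of EIF2B4 and EIF2B5 were -0.44 ± 0.29 and -0.16 ± 0.19. Of the factors that can deliver initiator tRNA without eIF2, EIF2A was at 65.0, 61.0, 67.7 and 79.3 CPM in the early-molt and 75.2, 62.2, 73.9 and 59.8 CPM in the late-molt libraries and EIF2D at 58.5, 45.1, 38.3 and 34.5 CPM in the early-molt and 37.4, 44.4, 31.4 and 45.6 CPM in the late-molt libraries. Both overlapped, with log2 fold changes of -0.01 ± 0.18 and -0.15 ± 0.22.

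The eIF4 genes had values in both directions. Over 12 genes the median log2 fold change was -0.11, with 2 genes lower and 2 higher at an unadjusted p under 0.05 (16.7% each, beside 6.22% and 5.2% of all genes). EIF4H, a cofactor that stimulates the helicase eIF4A, was at 325, 302, 367 and 319 CPM in the early-molt and 216, 215, 263 and 230.2 CPM in the late-molt libraries. No late-molt value reached the lowest early-molt value (log2 fold change -0.51 ± 0.17, adjusted p = 0.241), and it passed in DESeq2 (adjusted p = 0.0114, range over the settings 0.0114 to 0.609). EIF4B, the related helicase cofactor, went from 772 ± 149.6 CPM (mean ± SD, n = 4) to 542 ± 47.8 CPM (log2 fold change -0.51 ± 0.20, adjusted p = 0.326). Its early-molt value in C497 lay within the late-molt range. EIF4A3, a helicase of the exon junction complex, went from 75.6 ± 2.33 CPM (mean ± SD, n = 4) to 62.0 ± 6.24 CPM without overlap (log2 fold change -0.29 ± 0.16, adjusted p = 0.575).

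The 2 genes with higher values encode a cap-binding protein and a scaffold. EIF4E3, an atypical member of the cap-binding family, was at 18.8, 5.93, 25.9 and 16.6 CPM in the early-molt and 36.9, 32.4, 25.5 and 37.7 CPM in the late-molt libraries. Late 9678 was just below the highest early-molt library, 6762, and the others were apart (log2 fold change 0.98 ± 0.35, adjusted p = 0.279). EIF4G3, the other large scaffold that links the cap to the ribosome, was at 94.9, 80.4, 204 and 164 CPM in the early-molt and 224, 188, 316 and 218 CPM in the late-molt libraries. Here late 5572 lay below early 6762 (log2 fold change 0.80 ± 0.29, adjusted p = 0.287). EIF4G1, the main scaffold, had overlapping groups, from 586 ± 97.9 CPM (mean ± SD, n = 4) to 760.5 ± 122 CPM (log2 fold change 0.38 ± 0.20, adjusted p = 0.548). The log2 ratio of EIF4G3 to EIF4G1 differed by 0.50, late minus early (two-sided exact permutation p = 0.0571, adjusted over 6 ratios 0.257, smallest p possible 0.0286).

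The core cap-binding protein EIF4E (-0.01 ± 0.23), its repressive relative EIF4E2 (0.15 ± 0.18), the helicases EIF4A1 (-0.19 ± 0.21) and EIF4A2 (-0.03 ± 0.18), EIF4G2, a scaffold that does not bind EIF4E (-0.26 ± 0.19), and EIF4ENIF1, the nuclear transporter of EIF4E (-0.21 ± 0.31), overlapped between the groups with an unadjusted p above 0.05. The ratio of EIF4A2 to EIF4A1 differed by 0.16 and that of EIF4E2 to EIF4E by 0.17 on the log2 scale (two-sided exact permutation p = 0.771 and 0.371, adjusted 0.829 and 0.557).

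The genes listed for start codon selection and subunit joining, with EIF1AD among them by its symbol only, had 5 of 6 positive values and a median of 0.18, which was 0.044 without early 5842. EIF1B, a close relative of the fidelity factor EIF1, was at 49.98, 68.7, 39.6 and 51.0 CPM in the early-molt and 107, 76.7, 73.9 and 80.6 CPM in the late-molt libraries. It was the 1 translation factor gene with every late-molt library above every early-molt library (log2 fold change 0.69 ± 0.21, adjusted p = 0.185), with an adjusted p over the other settings of 0.0502 to 0.478. EIF1 itself was at 446, 430.4, 343 and 310.3 CPM in the early-molt and 408, 477, 443 and 492 CPM in the late-molt libraries and overlapped (log2 fold change 0.25 ± 0.19, adjusted p = 0.706). The log2 ratio of EIF1B to EIF1 differed by 0.44 (two-sided exact permutation p = 0.0857, adjusted 0.257). EIF5B, the GTPase of subunit joining, was at 89.7, 131, 125 and 106 CPM in the early-molt and 105, 77.8, 111 and 82.6 CPM in the late-molt libraries (log2 fold change -0.26 ± 0.20, adjusted p = 0.705). It was the 1 negative value of the 6, with overlapping groups. EIF5, which triggers GTP hydrolysis by eIF2 (0.15 ± 0.24), EIF1AX, the eIF1A gene (0.05 ± 0.18), and EIF1AD, a nuclear protein with an eIF1A domain (0.21 ± 0.33), also overlapped.

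EIF5A, the hypusine-bearing factor that helps the ribosome past difficult peptide bonds, was at 292, 297, 206 and 242 CPM in the early-molt and 261, 299.9, 312 and 316 CPM in the late-molt libraries (log2 fold change 0.20 ± 0.19, adjusted p = 0.795). EIF6, which keeps the large subunit from joining too early, was at 24.8, 27.0, 24.3 and 35.6 CPM in the early-molt and 21.1, 22.2, 19.0 and 25.9 CPM in the late-molt libraries (log2 fold change -0.34 ± 0.21, adjusted p = 0.610). Both overlapped between the groups. EIF5A2, another hypusine-bearing form with few reads here, was at 0.785, 2.60, 0 and 0 CPM in the early-molt and 0.272, 0.389, 0 and 0.0991 CPM in the late-molt libraries, and its fold change of -2.13 ± 2.01 was -0.41 without early 5842 and had an adjusted p of 0.792. The log2 ratio of EIF5A2 to EIF5A differed by -0.34 (two-sided exact permutation p = 0.829, adjusted 0.829).

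**Figure D4:**
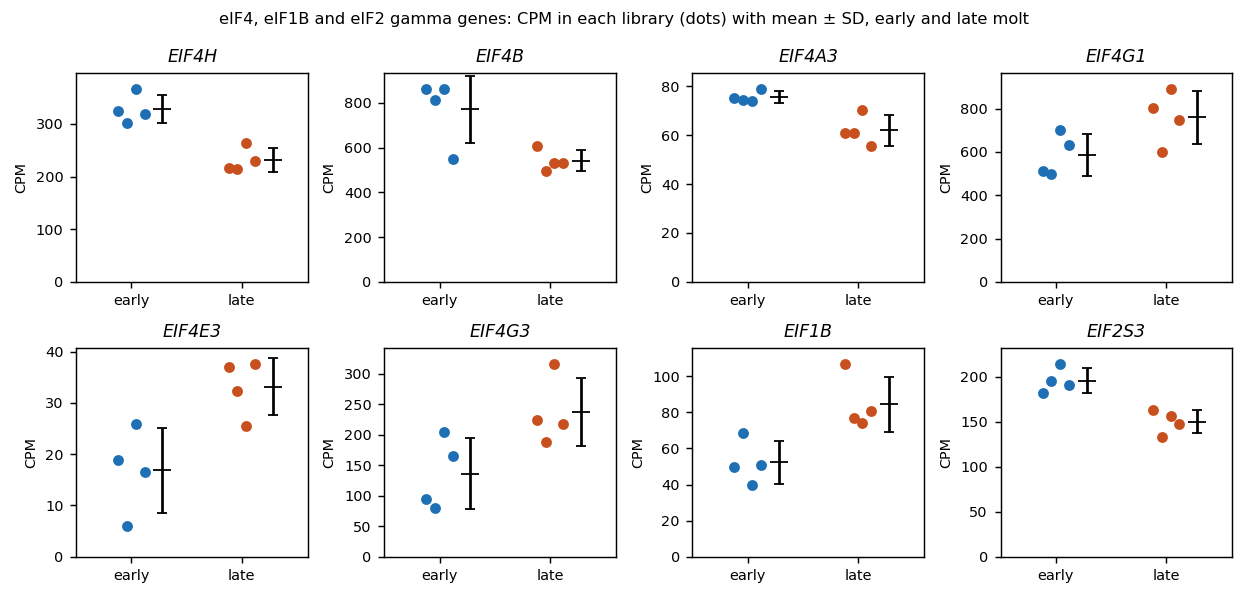
CPM of 6 eIF4 genes, EIF1B and EIF2S3 in each library (dots, early molt in blue, late molt in orange), with the mean and SD of each group. EIF4H, EIF4A3 and EIF2S3 are lower and EIF1B higher in late molt without overlap, and EIF4B, EIF4G1, EIF4E3 and EIF4G3 overlap.

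Translation factors with a known TOP tract (EEF1A1, EEF1A2, EEF1B2, EEF1D, EEF1G, EEF2, EIF3E, EIF3F, EIF3H and EIF4B) had 10 of 10 negative values, a median of -0.73 and 8 genes lower at an unadjusted p under 0.05. The 8 lower genes were 80% of this list, beside 6.22% of all genes. The other 40 factors had 26 negative values, a median of -0.16 and 6 lower genes (15%). The 10 genes are among the eEF1, EEF2, eIF3 and eIF4 genes already described, so these are the same values grouped again. The 10 genes, of which EEF1A2 and EEF2 had the most reads, made up 1.72 to 2.02% of counts in early and 1.31 to 1.55% in late molt. The 75 cytosolic ribosomal protein genes, whose mRNAs carry the same tract, had a median of -0.86, with 74 negative values and 67 lower genes at an unadjusted p under 0.05 (89.3%, beside 6.22% of all genes), and at an adjusted p under 0.05 edgeR called 0 and DESeq2 38 of the 75. Early 5842 stood apart for them, at 5.08% of counts, beside 3.18 to 3.29% in the other early-molt and 1.85 to 2.62% in the late-molt libraries. Without it the ribosomal protein genes had a median of -0.52 and 45 lower genes (60%), and the TOP factors a median of -0.56 and 8 lower genes (80%). In that fit 4.56% of all genes were lower at an unadjusted p under 0.05. The tract itself was not read from any sequence here, so the other 40 factors may include genes that carry it, and the difference between the sets was not tested.

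Genes that regulate initiation at the cap were mixed, with 4 of 17 lower and 1 higher at an unadjusted p under 0.05, a median of 0.02 (-0.07 without early 5842) and none past the edgeR threshold (3 lower in DESeq2). The counts were 23.5% and 5.88% of the list, beside 6.22% and 5.2% of all genes, so the share of higher genes was near that of all genes. PDCD4, an inhibitor of the helicase eIF4A, was at 37.3, 52.2, 48.1 and 58.3 CPM in the early-molt and 26.6, 25.7, 25.6 and 33.4 CPM in the late-molt libraries (log2 fold change -0.82 ± 0.20, adjusted p = 0.0922). PABPC1, the cytoplasmic poly(A)-binding protein that bridges the mRNA tail to eIF4G, was at 278, 215, 426 and 208 CPM in the early-molt and 135, 146, 135 and 178 CPM in the late-molt libraries (log2 fold change -0.92 ± 0.24, adjusted p = 0.118). Both were lower in late molt without overlap. EIF4EBP3, a repressor that binds EIF4E, was at 26.6, 46.0, 31.3 and 24.2 CPM in the early-molt and 16.2, 17.4, 19.7 and 19.3 CPM in the late-molt libraries, also without overlap (log2 fold change -0.82 ± 0.24, adjusted p = 0.156). EIF4EBP1, a repressor that mTOR inactivates, was at 303, 346, 269 and 157 CPM in the early-molt and 153, 174, 185 and 169.6 CPM in the late-molt libraries (log2 fold change -0.66 ± 0.23, adjusted p = 0.263). Its early-molt value in C497 lay within the late-molt range. MTOR was at 92.1, 84.4, 117 and 145 CPM in the early-molt and 138, 131, 130.4 and 140.3 CPM in the late-molt libraries and overlapped (log2 fold change 0.30 ± 0.20, adjusted p = 0.659).

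Of the genes that regulate eIF2 or assist initiation beside it, 8 of 12 had positive values, with an unadjusted p under 0.05 for 4 of 12 higher and 0 lower genes and a median of 0.50 (2 higher in DESeq2, none in edgeR). The 4 higher genes were 33.3% of the list, beside 5.2% of all genes. Without early 5842, 2 were higher at that p (16.7%, beside 4.73% of all genes in that fit) and the median was 0.41. The negative values were those of the reinitiation factors DENR (-0.47 ± 0.23) and MCTS1 (-1.20 ± 0.68), of ABCF1, which binds eIF2 (-0.13 ± 0.22), and of the kinase EIF2AK2 (-0.02 ± 0.26). ATF4, the stress transcription factor whose translation is favoured when EIF2S1 is phosphorylated, was at 139, 108, 120.2 and 142 CPM in the early-molt and 255, 228, 217 and 209 CPM in the late-molt libraries. Every late-molt value was above every early-molt value (log2 fold change 0.83 ± 0.18, adjusted p = 0.0629). It passed in DESeq2, limma-voom, without the filter and with the 1 CPM filter, and its adjusted p over the 18 alternatives was 1.36e-05 to 0.267. PPP1R15A, which directs phosphatase to EIF2S1, was at 129.8, 138, 132 and 124 CPM in the early-molt and 297, 185, 153 and 243 CPM in the late-molt libraries, also without overlap (log2 fold change 0.75 ± 0.22, adjusted p = 0.162). EIF2AK4, the kinase that senses uncharged tRNA, was at 29.9, 26.8, 55.3 and 32.5 CPM in the early-molt and 61.6, 42.0, 76.9 and 43.1 CPM in the late-molt libraries (log2 fold change 0.63 ± 0.28, adjusted p = 0.396). GCN1, its activator, was at 36.8, 32.3, 50.9 and 61.7 CPM in the early-molt and 57.5, 55.7, 116 and 58.9 CPM in the late-molt libraries (log2 fold change 0.66 ± 0.29, adjusted p = 0.385). Both overlapped between the groups, with late 9678 the highest library of each, and without it the log2 fold change of GCN1 was 0.34.

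Among genes that modify or recycle elongation and termination factors, an unadjusted p under 0.05 was reached by 3 of 18 with higher and 0 with lower values, with a median of -0.01 (0.14 without early 5842) and none past the edgeR threshold. The 3 higher genes were 16.7% of the list, beside 5.2% of all genes. EEF1AKMT1, a lysine methyltransferase of eEF1A, was at 27.1, 21.9, 22.4 and 19.3 CPM in the early-molt and 34.9, 39.9, 37.3 and 40.9 CPM in the late-molt libraries. The groups did not overlap (log2 fold change 0.75 ± 0.19, adjusted p = 0.0958), and it was the 1 gene of this list called by DESeq2. EEF2K, the kinase that inactivates eEF2, was at 58.5, 47.3, 49.6 and 55.6 CPM in the early-molt and 77.6, 87.9, 101 and 54.6 CPM in the late-molt libraries (log2 fold change 0.61 ± 0.21, adjusted p = 0.248). Late X410 lay within the early-molt range. DOHH, which completes the hypusine of EIF5A, was at 25.1, 17.9, 26.6 and 28.9 CPM in the early-molt and 38.4, 33.2, 44.2 and 34.1 CPM in the late-molt libraries without overlap (log2 fold change 0.61 ± 0.21, adjusted p = 0.248). Messenger RNA levels of these enzymes do not give their activity, which was not measured.

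**Figure D5:**
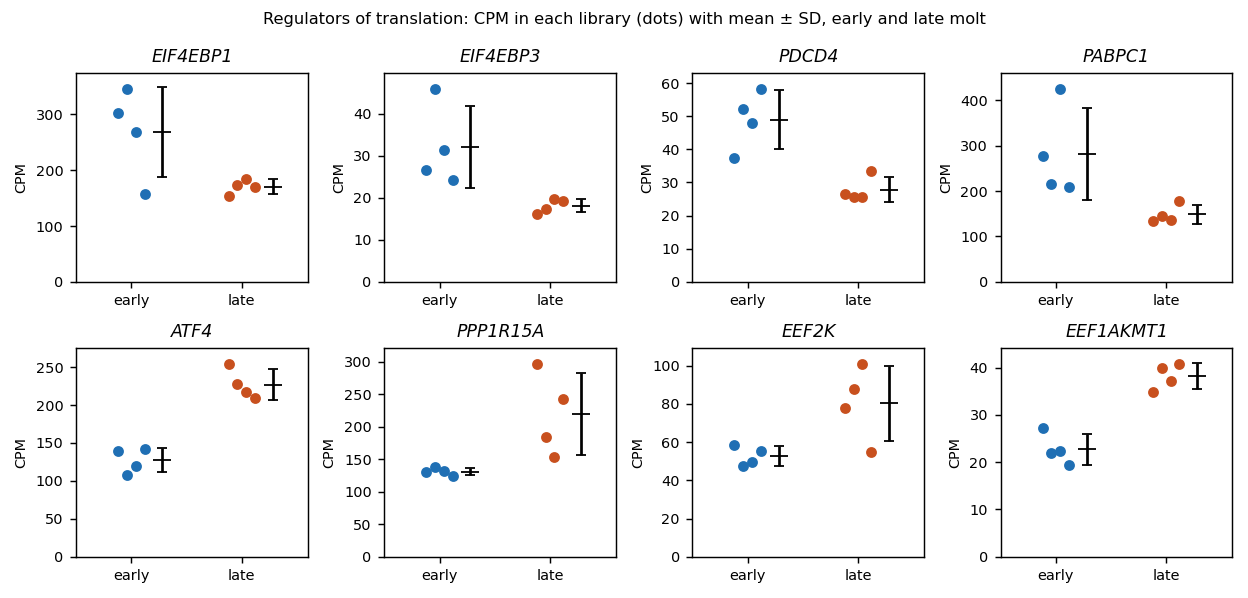
CPM of 8 genes that regulate translation factors in each library (dots, early molt in blue, late molt in orange), with the mean and SD of each group. PDCD4, PABPC1 and EIF4EBP3 are lower and ATF4, PPP1R15A and EEF1AKMT1 higher in late molt without overlap, while EIF4EBP1 and EEF2K overlap in 1 library.

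In seal 5572, the 1 animal with a library at both times, 33 of the 50 translation factor genes had a lower value in late molt and the median difference was -0.21 on the log2 scale. EEF1A1 went the other way in this seal, from 120.2 to 193 CPM, and so did EIF3A, from 116 to 147 CPM. EEF1A2 went from 8697 to 3923 CPM and EIF3K from 463 to 253 CPM. With both libraries of this seal left out, an unadjusted p under 0.05 was reached by 10 genes with lower and 3 with higher values, and the median over the 50 genes was -0.28. For the pair and for this fit no share over all genes is given, so these counts are not set against a general shift. In the comparison of all 8 libraries, 53.6% of all genes had a negative value.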

How the data were processed

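RNA of longissimus dorsi biopsies from NES was sequenced in 8 libraries, 4 of early and 4 of late molt, grouped by the stage in the sample labels. The study had more biopsies and reports that some sequenced poorly because their RNA was of low quality. For that reason it took into each group those with the most uniquely mapped reads. Per the labels and the study's methods, the authors ran bcl2fastq 2.20, used STAR to place the read pairs on the genome of a relative, the Hawaiian monk seal, and deposited the unscaled counts of uniquely aligned reads per gene. The strand setting is not given in the sources used here, so overlapping genes cannot be told apart, and the labels and the study name different library kits. The 8 entries with no gene name (0.0145 to 0.0187% of counts) stayed out of library sizes and tests. No library was a copy of another (chi-square per degree of freedom at least 99.0 in 28 pairs).

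Genes were filtered with filterByExpr of edgeR 4.0.16 (at least 10 counts, 15 in total), which kept 14314 of the 19403 genes that had reads, scaled with TMM and tested with the quasi-likelihood test in R 4.3.3, late over early molt, without a seal term. Log2 CPM used a prior count of 2. DESeq2 1.42.0 and limma-voom (limma 3.58.1), other scalings and filters, fits without libraries and a TTN and NEB covariate were alternatives. The 6 paralog ratios, log2 of counts + 1, were compared over all 70 divisions of the libraries, two-sided, with a smallest p of 0.0286. Lists are described by counts and medians. The genes with values in every library are EEF2, those of eEF1 and eIF2, and the 3 with the smallest p in each complex and regulator list, with EIF4EBP1, EEF2K, MTOR and EIF2AK4. EIF3B is also given by library, chosen after its values were seen. The members, lists and tests were chosen with earlier results of these data known. The test was tested on simulated data of 13532 genes, where edgeR called 10 of the 94 that were changed by 1 log2 unit and 57 of the 97 changed by 2. Symbols of all 50 genes matched the RefSeq annotation of NES (assembly mMirAng1.0.hap1), from which no coordinates were used, and no sequence was analysed here.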

Additional observations from a re-analysis of the deposited data

Results flagged for a closer look

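In each group of 4 libraries, a value was singled out where its gap to the nearest other library was more than 0.829 of the whole range (Dixon's limit). Of 156 sets of 4 values, 16 were singled out, and chance gives about 1 in 20. Early 5842 was far above the other early-molt libraries for EEF1B2 (573 CPM, against 343 to 382 in the other 3), EIF3H (165 CPM, against 129.8 to 132 in the other 3) and EIF3J (72.4 CPM, against 53.2 to 56.2 in the other 3), and below them for EIF2B5 (58.9 CPM, against 76.6 to 79.997 in the other 3). This is the library with the highest fibroblast marker level. Early C497 was apart for EIF4A1 (148 CPM, against 92.0 to 99.1 in the other 3) and EIF4B (551 CPM, against 812 to 864 in the other 3), and early 6762 for EIF2B2 (17.3 CPM, against 22.0 to 22.5 in the other 3). Early 5572 was apart for the mean log2 CPM of EIF2A and EIF2D (5.95, against 5.67 to 5.71 in the other 3).

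In late molt, library 9678 was apart for EIF2B2 (20.7 CPM, against 12.8 to 13.8 in the other 3), EIF4ENIF1 (9.03 CPM, against 25.9 to 27.3 in the other 3), GCN1 (116 CPM, against 55.7 to 58.9 in the other 3), the mean log2 CPM of the eIF2B genes (4.50, against 4.81 to 4.86 in the other 3) and that of EIF2A and EIF2D (5.59, against 5.71 to 5.73 in the other 3). Late 4448 was apart for EIF3B (565 CPM, against 456 to 458 in the other 3) and for the log2 ratio of EIF1B to EIF1 (-1.93, against -2.64 to -2.58 in the other 3). Late X410 was apart for PDCD4 (33.4 CPM, against 25.6 to 26.6 in the other 3). The cause of these values was not tested.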

How the results depend on the processing

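Under RLE or upper-quartile factors, or without the 20 most abundant genes in the library size, the counts and medians of the 50 genes kept their direction and their side of the threshold. The count called lower at an adjusted p under 0.05 was 0 in edgeR and depended on the tool and the filter: 10 in DESeq2, 1 in limma-voom (EIF3K), 2 with no filter (EIF3F and EIF3K) and 3 with at least 1 CPM in all libraries (EEF1D, EIF3F and EIF3K), where 49 of the 50 genes were tested. The count was 0 in each of the 8 fits that left out 1 library, in which 11 to 13 genes were lower and 2 to 4 higher at an unadjusted p under 0.05 and the median was -0.31 to -0.22. In the fit without early 5842, 12 of the 50 (24%) were lower and 3 (6%) higher at that p, beside 4.56% and 4.73% of all genes. For the other fits without 1 library, no share over all genes is given. Without early 5842 and late 9678, 9 genes were lower at an unadjusted p under 0.05 and the median was -0.12, with 3 libraries a group. That fit also has no share over all genes given, so its count is not set against a general shift. The medians in the fits without 1 library were -0.85 to -0.56 for eEF1 and -0.55 to -0.37 for eIF3, the weakest without early 5842. For the eIF4 genes it was -0.21 to 0.023, and without early 5842 and late 9678 it was 0.068.

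Fold changes of these genes, none of which was called in edgeR, changed sign: in DESeq2 EIF2A at 6.28e-05. In limma-voom EIF3A at 0.00064 and EIF5A2 at 0.62. With no filter EIF4E at 0.0031 and EIF2A at 0.0047. Without both libraries of seal 5572 EIF2A at 0.0085 and EIF4A2 at 0.015. Without early 5842 and late 9678 EIF1AX at -0.0044, EIF5 at -0.052, EIF4E at 0.043, EIF4A2 at 0.092, EEF1A1 at 0.24, EIF3J at 0.11, EEF1E1 at -0.081 and EIF4ENIF1 at 0.11. With TTN and NEB as a covariate, a setting chosen after seeing the data, EIF4E at 0.055, EIF1AD at -0.019, EIF2A at 0.013, EIF3J at 0.0088 and EIF3A at 0.14. In the fits without 1 library, the log2 fold changes of genes that changed sign were EEF1A1 -0.62 to 0.055, EIF1AX -0.017 to 0.13, EIF2A -0.060 to 0.072, EIF2D -0.25 to 0.012, EIF3A -0.17 to 0.063, EIF3J -0.078 to 0.11, EIF4A1 -0.25 to 0.0032, EIF4A2 -0.11 to 0.066, EIF4E -0.18 to 0.14 and EIF4ENIF1 -0.33 to 0.050. The paralog log2 ratios without 1 library were EEF1A2 over EEF1A1 -0.77 to -0.25, EIF1B over EIF1 0.27 to 0.53, EIF4A2 over EIF4A1 -0.10 to 0.29, EIF4E2 over EIF4E 0.070 to 0.28, EIF4G3 over EIF4G1 0.36 to 0.64 and EIF5A2 over EIF5A -1.40 to 0.94. The cause of these changes was not tested. No paired analysis was possible because only seal 5572 has a library at both times.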
